A study of Mus musculus with 9 samples.

Results

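The genes of the T cell receptor complex and its signalling cascade were followed in cells labelled as regulatory T cells. By genotype label, the knockout groups had lost either of a pair of histone acetyltransferases. The list holds 39 genes with a known place in the pathway, and it was chosen with earlier results of these data known. A gene was measured where the array annotation gives it a probe set of its own, and the probe set with the highest mean over all 9 arrays stood for it. By this rule 36 of the 39 were measured, among 12393 genes in all. Lck, Cblb and Ubash3a are not analysed here.

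The T cell receptor carries no enzyme of its own. Its signal passes through the CD3 chains and the zeta chain to the kinases of the Src and Syk families, which phosphorylate the scaffolds LAT and SLP-76. Phospholipase C gamma, Ras exchange factors, protein kinase C theta and the calcineurin to NFAT route lie downstream. Coreceptors and costimulatory receptors add to the signal, and phosphatases, ubiquitin ligases and diacylglycerol kinases restrain it. Regulatory T cells need this receptor both to develop and to suppress.

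Each array held RNA from magnetically separated CD4+CD25+ cells of C57Bl/6 mice, with 3 arrays in each of 3 groups. The genotypes were fl-CBP/Foxp3cre (called CBP-deleted here), fl-p300/Foxp3cre (p300-deleted) and Foxp3cre control, which the sample names call WT, so that the genotype labels give all groups the Cre allele while the names leave it unclear for the controls. The Foxp3 locus drives the Cre, so deletion is tied to cells that have expressed Foxp3, and any other cell in the separated fraction keeps its intact genes. The labels call the samples independent and give neither age nor the number of animals behind each. The values are log2 probe set summaries, called log2 values below, and differences between groups are log2 fold changes from limma with their standard error (SE).

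The arrays were alike in scale, with medians of 5.49 to 5.59. The probe sets for 18S ribosomal RNA read 7.39 to 8.0 in CBP-deleted arrays, 7.88 to 9.62 in p300-deleted arrays and 5.82, 6.20 and 8.88 in controls, where replicate 3 stood apart. Crebbp, the gene of CBP, averaged 7.20 ± 0.13 in CBP-deleted cells, 7.56 ± 0.10 in p300-deleted cells and 7.53 ± 0.16 in controls (SD, n = 3 each). Its difference from the control of -0.33 in CBP-deleted cells missed the threshold (limma adjusted p = 0.123), and since the deleted part is not given in the labels this probe set does not check the deletion. The Foxp3 probe set read 2.73 to 2.97 in CBP-deleted cells, 2.58 to 3.19 in p300-deleted cells and 9.48 to 9.75 in controls, a difference of -6.73 with CBP deleted and -6.65 with p300 deleted (limma adjusted p = 4.07e-10 and 4.66e-10). Foxp3 defines regulatory T cells, and its only probe set read low in the knockouts against their cell label. The controls are labelled both Foxp3cre and wild type, and which part of the transcript the probe set reads, or whether it reads an allele that carries Cre, is not given in the sources used here. Loss of Foxp3 RNA cannot be told apart here from a Cre allele that the probe set does not read and the controls lack. Il2ra, the gene of the CD25 used for the separation, averaged 9.10, 9.29 and 9.05 in the same order and did not pass in either knockout. Foxp3 and Il2ra belong to a list of 10 regulatory T cell markers. In CBP-deleted cells 2 of the 10 rose against the control (Ctla4, Tnfrsf4) and 2 fell (Foxp3, Gpr83) by limma. In p300-deleted cells 0 rose (3 at an unadjusted p under 0.05) and 1 fell (Foxp3). The T cell markers Cd3d, Cd3e, Cd3g and Cd4 each read above at least 87.4% of all probe sets on every array.

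CBP-deleted cells had 2 risers (Cd2, Ppp3cb) and 4 fallers (Cd5, Cd6, Thy1, Csk) among the members when set against the control, at an adjusted p under 0.05. Over all 12393 genes 2.14% rose and 2.79% fell in that comparison. In p300-deleted cells 5 members rose and 0 fell, where 2.02% of all genes rose and 2.04% fell. The limma count of 0 falling members in p300-deleted cells became 2 (Csk, Thy1) without control replicate 3, and 2 members fell at an unadjusted p under 0.05. CBP-deleted cells had 1 member higher and 4 lower than p300-deleted cells, against 3.2% of all genes higher and 2.01% lower. Together 11 members passed in at least 1 comparison and 25 in none. These 3 comparisons share arrays in pairs, so a gene's values in them are not independent. Should the controls lack the Cre allele, its presence and the deletion cannot be told apart in either comparison with the control.

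**Figure D1:**
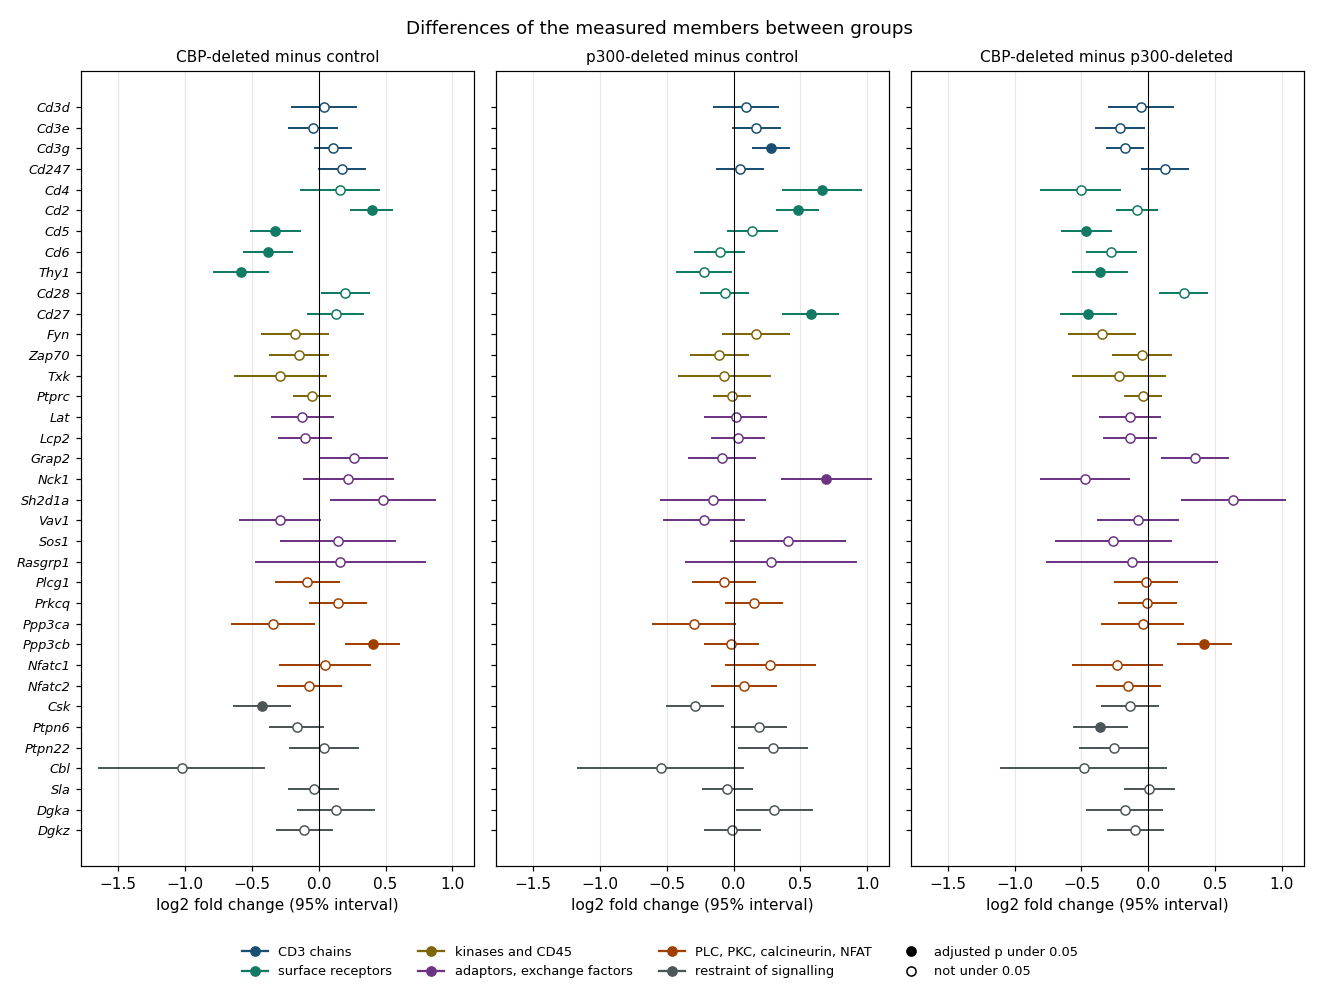
Log2 fold change of each of the 36 measured members (rows, grouped and coloured by role) in the 3 comparisons (panels), with lines for the 95% interval of the limma fit and filled points for an adjusted p under 0.05. The filled points lie mostly among the surface receptors, and 30 of the 36 points are left of 0 where CBP-deleted is set against p300-deleted.

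The changes were small. The members' median log2 fold change from the control was -0.04 for CBP-deleted and 0.04 for p300-deleted cells, beside -0.03 and -0.02 over all genes. Between the knockouts the members' median was -0.14 and that of all genes -0.02, with 30 of 36 members (83.3%) lower in CBP-deleted cells beside 54.1% of all genes. For 11 of the 36 members all CBP-deleted arrays lay on 1 side of all controls, where 24.4% of all genes were so separated. That was the case for 7 members in p300-deleted against control cells (20.3% of all genes) and for 18 between the knockouts (30.1% of all genes). The 95% interval of a member's difference reached a median of 0.22 to either side. That interval is not adjusted for the number of genes tested, so with 3 arrays a group a change had to be larger to pass. Cbl in CBP-deleted cells, for example, had an interval of -1.65 to -0.41 and did not pass.

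Of the 4 chains of the antigen receptor that were measured, 1 rose in p300-deleted cells and the others did not pass by the probe set that stood for the gene. Cd3d and Cd3e, which encode the delta and epsilon chains of CD3, passed in no comparison. Cd3d averaged 12.41 ± 0.07 in CBP-deleted, 12.46 ± 0.03 in p300-deleted and 12.37 ± 0.27 in control cells (SD, n = 3 each). Its differences from the control had 95% intervals of -0.20 to 0.28 for CBP-deleted and -0.15 to 0.33 for p300-deleted cells. For Cd3e the interval was -0.22 to 0.14 with CBP deleted and -0.01 to 0.35 with p300 deleted.

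Cd3g, the gamma chain of CD3, read 11.85, 11.87 and 11.88 in CBP-deleted cells, 12.04, 12.06 and 12.02 in p300-deleted cells, and 11.77, 11.83 and 11.69 in controls. The p300-deleted arrays lay above all others, and the CBP-deleted arrays lay between. Cd3g rose in p300-deleted cells by 0.28 (SE 0.06, limma adjusted p = 0.0307), a 1.22-fold change. It was 0.11 above the control in CBP-deleted cells (adjusted p = 0.377). The call was kept in 2 of the 9 fits that leave out 1 array, those without control replicate 2 or 3. It was also lost with no variance trend, with only the arrays compared, with the 18S level as a covariate and with the replicate number as a block (adjusted p of 0.0577 to 0.112). Cd3g, Cd3d and Cd3e lie side by side on chromosome 9 in the RefSeq gene order.

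Cd247 encodes the zeta chain, which carries most of the receptor's signalling motifs. Its brightest probe set averaged 10.39 ± 0.06 in CBP-deleted, 10.26 ± 0.10 in p300-deleted and 10.21 ± 0.08 in control cells (SD, n = 3 each), and passed in no comparison. The next brightest of its 4 probe sets gave another picture. It read 9.47, 9.12 and 9.24 in CBP-deleted cells, 9.11, 9.38 and 9.09 in p300-deleted cells, and 8.12, 7.70 and 8.62 in controls. All 6 knockout arrays were above all 3 controls, which were spread over nearly a log2 unit. Fitted among all probe sets, it was higher by 1.13 with CBP deleted (SE 0.19, limma adjusted p = 0.0176) and by 1.05 with p300 deleted (SE 0.19, limma adjusted p = 0.0207). The files do not say which transcript each probe set reads.

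The surface receptors held most of the member calls: 4 of 7 changed in CBP-deleted and 3 of 7 in p300-deleted cells against the control. Over all genes 4.93% and 4.06% were called, and with the dimmer genes left out 605 and 488 of 6197. Cd2, an adhesion and costimulatory receptor that binds CD48 in mice, read 11.47, 11.36 and 11.47 in CBP-deleted cells, 11.47, 11.57 and 11.52 in p300-deleted cells, and 11.09, 10.95 and 11.07 in controls. Every knockout array was above every control. Cd2 rose 1.32-fold in CBP-deleted cells (log2 0.40, SE 0.07, limma adjusted p = 0.0124) and 1.4-fold in p300-deleted cells (log2 0.48, SE 0.07, adjusted p = 0.00712), against the same controls. The knockouts differed from each other by -0.08 (95% interval -0.24 to 0.07, adjusted p = 0.588). It was the only member called in both knockouts against the control. In p300-deleted cells the call held in all 19 alternatives run, and in CBP-deleted cells in 17, with losses without CBP-deleted replicate 1 or 3.

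**Figure D2:**
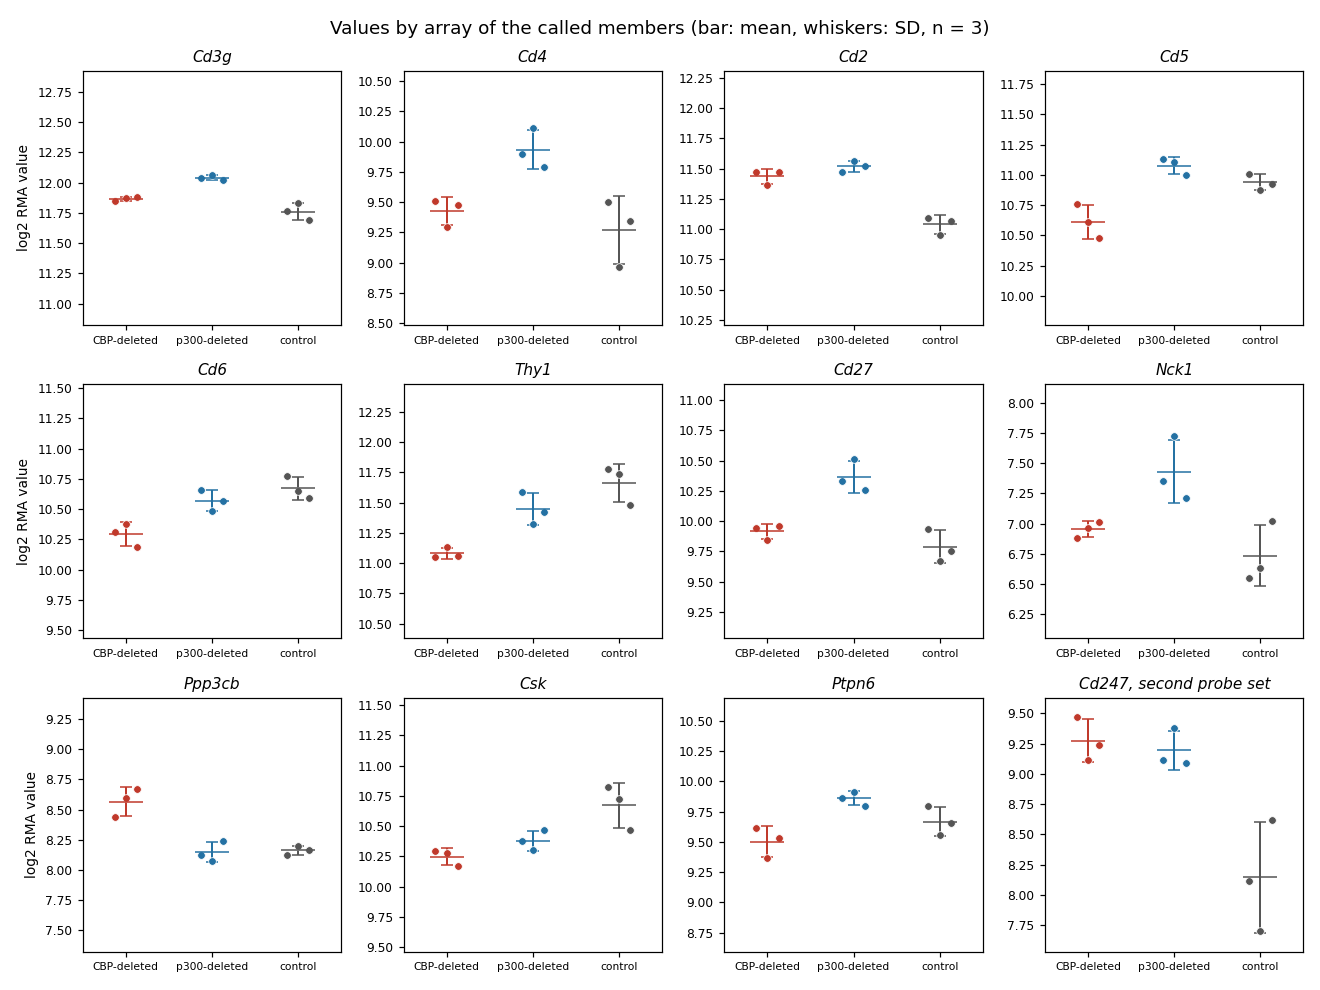
Log2 value in each of the 3 arrays of CBP-deleted, p300-deleted and control cells (points) with the mean and SD (bars and whiskers) for the 11 members called in at least 1 comparison and for the next brightest probe set of Cd247; every panel spans 2.1 log2 units, at its own level. Cd2 is higher in both knockouts, Thy1, Cd5 and Cd6 are low in CBP-deleted cells, and Cd4 and Cd27 are high in p300-deleted cells.

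Thy1, the glycolipid-anchored T cell surface protein CD90, fell furthest of the called members. It read 11.05, 11.14 and 11.06 in CBP-deleted cells, 11.59, 11.32 and 11.43 in p300-deleted cells, and 11.78, 11.74 and 11.49 in controls. The 3 CBP-deleted arrays lay below the other 6, while p300-deleted and control arrays overlapped. It fell 1.5-fold in CBP-deleted cells (log2 -0.58, SE 0.09, limma adjusted p = 0.00831), a call that held in all 19 alternatives. CBP-deleted cells were also lower than p300-deleted cells by 0.36 (adjusted p = 0.0430), and that call was lost without any single knockout array, with all probe sets averaged or tested singly, with no trend and with the replicate block. The p300-deleted cells were 0.22 below the control (adjusted p = 0.220), a difference that passed without control replicate 3 (adjusted p = 0.0477).

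Cd5 and Cd6 encode related scavenger receptors that damp receptor signalling, and they are neighbours on chromosome 19. Cd5 read 10.76, 10.61 and 10.48 in CBP-deleted cells, 11.13, 11.11 and 11.00 in p300-deleted cells, and 11.01, 10.88 and 10.93 in controls. The CBP-deleted arrays were the 3 lowest, and the other groups overlapped. The difference from p300-deleted cells was the clearer, -0.46 (SE 0.08, limma adjusted p = 0.00886), kept in 18 of 19 alternatives and lost without CBP-deleted replicate 2 (adjusted p = 0.0522). Against the control Cd5 was -0.32 (adjusted p = 0.0489), at the edge of the threshold and kept in 3 of 19 alternatives. Some B cells also carry CD5, and 4 of 8 measured B cell markers fell in CBP-deleted cells against the control. Their part in the Cd5 difference was not tested. Cd6 read 10.31, 10.38 and 10.19 in CBP-deleted cells, 10.66, 10.48 and 10.57 in p300-deleted cells, and 10.78, 10.65 and 10.59 in controls, again with the CBP-deleted arrays lowest. It fell by 0.38 in CBP-deleted cells (SE 0.08, adjusted p = 0.0277), a call lost without any 1 of the CBP-deleted arrays or control replicate 1, with no trend, with only the arrays compared and with 18S as a covariate. Its difference of -0.28 between the knockouts did not pass (adjusted p = 0.0851).

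Cd27 encodes a costimulatory receptor of the TNF receptor family. It read 9.95, 9.84 and 9.96 in CBP-deleted cells, 10.33, 10.51 and 10.25 in p300-deleted cells, and 9.94, 9.67 and 9.76 in controls. All p300-deleted arrays stood above the others. Cd27 rose 1.49-fold in p300-deleted cells (log2 0.58, SE 0.09, limma adjusted p = 0.00918), lost in 1 of 19 alternatives, without p300-deleted replicate 2 (adjusted p = 0.0559). CBP-deleted cells were lower than p300-deleted cells by 0.45 (adjusted p = 0.0169), a call kept in 4 of the 9 fits that leave out 1 array and lost without CBP-deleted replicate 1, 2 or 3 or p300-deleted replicate 1 or 2. Against the control the CBP-deleted cells were 0.13 higher (adjusted p = 0.482).

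Plasma cells and some B cells also carry CD27. Of 5 plasma cell markers, 4 rose in p300-deleted cells against the control and the list's mean log2 value was 8.65 to 9.11 in p300-deleted arrays, against 7.97 to 8.09 in controls. The same list was 7.92 to 8.22 in CBP-deleted arrays. Of 8 measured B cell markers, 1 (Ighm) rose in p300-deleted cells and 7 lay below the control by sign, beside 55.1% of all genes. The list means were 7.68 to 8.28, against 8.11 to 8.24 in controls. Their part in the Cd27 difference was not tested. In these bulk samples, fewer cells of a type and less RNA per cell cannot be told apart.

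Cd4, the coreceptor used for the separation, read 9.51, 9.29 and 9.48 in CBP-deleted cells, 9.90, 10.11 and 9.79 in p300-deleted cells, and 9.50, 8.96 and 9.35 in controls. The p300-deleted arrays were the highest 3, and control replicate 2 was the lowest of all 9. Cd4 rose 1.58-fold in p300-deleted cells (log2 0.66, SE 0.13, limma adjusted p = 0.0214), lost without p300-deleted replicate 1 or 2 and with only the arrays compared (adjusted p = 0.0623). With the 18S level as a covariate it did not pass, at 0.59 (adjusted p = 0.103). Between the knockouts the difference of -0.51 lay just outside the threshold (adjusted p = 0.0503). The other, dimmer probe set of Cd4 averaged 5.69 in CBP-deleted, 5.79 in p300-deleted and 5.27 in control cells and passed in no comparison. Cd28, the main costimulatory receptor, was the remaining surface member. It averaged 10.21 ± 0.06 in CBP-deleted, 9.94 ± 0.06 in p300-deleted and 10.01 ± 0.11 in control cells (SD, n = 3 each) and passed in no comparison.

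The kinases and CD45 gave no call by limma, and 1 of the 4, Fyn between the knockouts, had an unadjusted p under 0.05. Zap70, the Syk family kinase that docks on the phosphorylated chains, averaged 10.42 ± 0.14 in CBP-deleted, 10.47 ± 0.07 in p300-deleted and 10.57 ± 0.17 in control cells (SD, n = 3 each). Fyn, a Src family kinase, differed from the control by -0.18 (adjusted p = 0.418) with CBP deleted and 0.17 (adjusted p = 0.481) with p300 deleted, and its arrays did not overlap between the knockouts (-0.35, adjusted p = 0.110). Txk, a Tec family kinase, lay between -0.29 and -0.07 of the control. Ptprc, the gene of the phosphatase CD45 that activates Src family kinases, was the most even: its intervals were -0.19 to 0.08 with CBP deleted and -0.15 to 0.12 with p300 deleted against the control.

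Of the 8 adaptors and exchange factors, 1 rose in p300-deleted cells and 0 passed elsewhere by limma, where 2 in CBP-deleted cells and 3 between the knockouts had an unadjusted p under 0.05. This was Nck1, which links receptors to the actin skeleton. It read 6.88, 6.97 and 7.02 in CBP-deleted cells, 7.35, 7.72 and 7.21 in p300-deleted cells, and 6.55, 6.63 and 7.02 in controls. The p300-deleted arrays were the highest 3. It rose by 0.70 in p300-deleted cells (SE 0.15, limma adjusted p = 0.0290). The call was kept in 3 of the 9 fits that leave out 1 array, those without CBP-deleted replicate 3, p300-deleted replicate 3 or control replicate 3. It was lost at 0.39 with the mean of its probe sets (adjusted p = 0.0806), at 0.42 with 18S as a covariate (adjusted p = 0.107) and with only the arrays compared (adjusted p = 0.0857). The other probe set of Nck1 averaged 5.39, 5.60 and 5.51 in CBP-deleted, p300-deleted and control cells and passed in no comparison.

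Lat and Lcp2, which encode the scaffolds LAT and SLP-76, passed in no comparison. By the probe set that stood for each, they differed by at most 0.14 between any groups. The other, dimmer probe set of Lcp2 was lowest in the CBP-deleted arrays. It differed by -0.34 from the control and by -0.39 between the knockouts (limma adjusted p = 0.0974 and 0.0644 among all probe sets). Sh2d1a, the SAP adaptor of SLAM family receptors, read 9.71, 9.73 and 10.14 in CBP-deleted cells, 9.02, 9.46 and 9.19 in p300-deleted cells, and 9.35, 9.75 and 9.03 in controls. The knockouts did not overlap, but the difference of 0.64 missed the threshold (SE 0.18, adjusted p = 0.0623). Grap2, the GADS adaptor, Vav1 and the Ras exchange factors Sos1 and Rasgrp1 were each read by their brightest probe set. Their differences were -0.29 to 0.41 in the 3 comparisons. Grap2 and Sos1 were dim, with 48.4% to 54.5% and 49.1% to 57.3% of probe sets lower. Rasgrp1 had the widest intervals of all members, 0.63 to either side, with controls at 6.96, 5.65 and 6.44.

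Among the downstream enzymes and NFAT factors, Ppp3cb was the single call. It encodes a catalytic subunit of calcineurin, the calcium-dependent phosphatase that frees NFAT to enter the nucleus. Ppp3cb read 8.44, 8.59 and 8.67 in CBP-deleted cells, 8.13, 8.08 and 8.24 in p300-deleted cells, and 8.12, 8.20 and 8.17 in controls. The CBP-deleted arrays stood above the other 6, which overlapped. It rose 1.32-fold against the control (log2 0.40, SE 0.09, limma adjusted p = 0.0313) and was 0.42 above p300-deleted cells (adjusted p = 0.0210). Against the control the call was lost without any 1 CBP-deleted array, p300-deleted replicate 2 or control replicate 1, with only the arrays compared, with the replicate block and with 18S as a covariate. It was lost between the knockouts without CBP-deleted replicate 2 or 3 or p300-deleted replicate 1 or 2. Averaging it with its other probe set also ended both calls (adjusted p = 0.213 and 0.693), and the difference between the knockouts was then 0.17.

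Ppp3ca, the other catalytic subunit measured, passed in no comparison. It averaged 7.89 ± 0.24 in CBP-deleted, 7.93 ± 0.21 in p300-deleted and 8.23 ± 0.13 in control cells (SD, n = 3 each), with differences from the control of -0.34 (adjusted p = 0.193) and -0.30 (adjusted p = 0.283). Its other probe sets differed from the control by 0.03 and 0.08 in CBP-deleted cells and by -0.06 and -0.14 in p300-deleted cells. Nfatc1 and Nfatc2, the NFAT factors, differed from the control by -0.07 to 0.28 by the brightest probe set of each. That of Nfatc2 was dim, with 50.1% to 52.7% of probe sets lower. Prkcq, the gene of protein kinase C theta, differed by 0.14 with CBP deleted and 0.15 with p300 deleted (adjusted p = 0.442 and 0.459). Plcg1 read 3.50 to 3.77 on all arrays, with only 26.8% to 30.8% of probe sets lower, a level at which a difference cannot be read.

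Genes that restrain the signal gave 1 call against the control and 1 between the knockouts. Csk, the kinase that shuts Src family kinases, read 10.30, 10.28 and 10.17 in CBP-deleted cells, 10.37, 10.30 and 10.47 in p300-deleted cells, and 10.83, 10.72 and 10.47 in controls. All 6 knockout arrays were below all controls, with p300-deleted replicate 3 just under control replicate 3. Csk fell 1.34-fold in CBP-deleted cells (log2 -0.43, SE 0.10, limma adjusted p = 0.0301) and was -0.29 in p300-deleted cells (adjusted p = 0.119). Without control replicate 3 it passed in p300-deleted cells too, at -0.39 (adjusted p = 0.0191). The call in CBP-deleted cells was lost without any 1 CBP-deleted array or control replicate 1, with no trend, with only the arrays compared and with the replicate block.

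Ptpn6, the gene of the phosphatase SHP-1, read 9.61, 9.36 and 9.53 in CBP-deleted cells and 9.87, 9.91 and 9.80 in p300-deleted cells, with controls at 9.79, 9.55 and 9.66. The knockouts did not overlap, and the controls overlapped the CBP-deleted arrays. CBP-deleted cells were lower than p300-deleted cells by 0.36 (SE 0.09, limma adjusted p = 0.0435), lost without any single knockout array, with every probe set tested singly, with no trend, with the replicate block and with 18S as a covariate. Its other probe set gave -0.34 (adjusted p = 0.0673 among all probe sets). Many blood cells use SHP-1, and plasma cell markers, 4 of 5, were lower in CBP-deleted than in p300-deleted cells, with the list means above. Their part in the Ptpn6 difference was not tested.

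Cbl, a ubiquitin ligase that takes receptors down, had the widest gap that did not pass. It read 7.40, 7.68 and 6.58 in CBP-deleted cells, 7.83, 7.50 and 7.77 in p300-deleted cells, and 7.66, 8.73 and 8.36 in controls. The CBP-deleted and control arrays overlapped by 1 control, and the difference of -1.03 had a 95% interval of -1.65 to -0.41 (adjusted p = 0.0627). With the mean of its probe sets it passed (adjusted p = 0.0414). Ptpn22 is a phosphatase of the Src and Syk family kinases, Sla an adaptor that aids receptor turnover, and Dgka and Dgkz diacylglycerol kinases. By the probe sets that stood for them, they differed from the control by -0.11 to 0.31 and passed in no comparison. The other Sla probe set differed from the control by 0.67 with CBP deleted and 0.62 with p300 deleted. That of Dgkz differed by -0.36 and -0.24, and neither passed in any comparison.

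The members that passed the threshold between the knockouts were Thy1, Cd5, Cd27 and Ptpn6, lower in CBP-deleted cells, and Ppp3cb, higher in them. The promoter windows of those listed once in the RefSeq table of GRCm38.p6 are shown to place them beside the direction of change: the 250 bases before the gene's start, 5′ to 3′ on the gene's strand. Capitals mark GGAAG or its complement CTTCC, a core bound by Ets family factors, which are active in T cells. CBP was named for binding CREB, so the core TGACG of the cyclic AMP response element was searched on both strands too, and TGTGGT, a Runx core; matches of the 3 motifs did not overlap.
Cd5, chr19:10738975-10739224, - strand: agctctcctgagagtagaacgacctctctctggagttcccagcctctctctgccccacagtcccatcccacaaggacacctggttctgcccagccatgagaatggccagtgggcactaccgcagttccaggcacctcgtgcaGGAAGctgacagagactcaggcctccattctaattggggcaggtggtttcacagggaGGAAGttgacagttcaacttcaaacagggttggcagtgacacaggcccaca
Cd27, chr6:125237028-125237277, - strand: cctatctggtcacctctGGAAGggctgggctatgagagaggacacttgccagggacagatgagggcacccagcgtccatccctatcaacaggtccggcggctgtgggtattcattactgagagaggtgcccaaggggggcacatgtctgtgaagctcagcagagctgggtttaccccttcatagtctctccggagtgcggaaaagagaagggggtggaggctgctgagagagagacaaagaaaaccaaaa
Ptpn6, chr6:124738710-124738959, - strand: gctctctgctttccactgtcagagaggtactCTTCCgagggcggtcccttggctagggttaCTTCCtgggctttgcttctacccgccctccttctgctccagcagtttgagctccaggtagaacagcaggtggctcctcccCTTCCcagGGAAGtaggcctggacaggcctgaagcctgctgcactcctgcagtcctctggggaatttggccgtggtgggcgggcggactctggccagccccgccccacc
Ppp3cb, chr14:20546574-20546823, - strand: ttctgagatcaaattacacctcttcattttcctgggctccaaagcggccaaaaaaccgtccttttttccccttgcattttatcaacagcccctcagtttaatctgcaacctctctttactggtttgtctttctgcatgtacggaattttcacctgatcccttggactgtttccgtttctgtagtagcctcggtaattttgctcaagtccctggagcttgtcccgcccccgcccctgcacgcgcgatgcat

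The Ets core stood 2 times in the Cd5 window, 1 time in that of Cd27 and 4 times in that of Ptpn6, all 3 lower in CBP-deleted than in p300-deleted cells, and 0 times in that of Ppp3cb, which was higher. Of all 32851 windows of this length 64.1% hold it, so its presence in these is common. TGACG was in none of the 4 windows and is in 17.8% of all, and TGTGGT was in none of the 4 and is in 14% of all. A match is a run of letters, not a bound site, and these windows leave out distal elements. Thy1, also lower in CBP-deleted cells, had no window to search. Cd3g, called only in p300-deleted cells against the control, was -0.175 between the knockouts (limma adjusted p = 0.148). Its window, not printed here, held the Ets core 0 times.

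Beyond the members, 115 other genes of the pathway were listed and 90 measured. In CBP-deleted cells 3 of them rose and 9 fell against the control, in p300-deleted cells 2 rose and 1 fell, and CBP-deleted cells had 0 higher and 11 lower than p300-deleted cells by limma (4 and 23 at an unadjusted p under 0.05). Over all genes the shares were 2.14% higher and 2.79% lower, 2.02% and 2.04%, and 3.2% and 2.01% in that order. The median log2 fold changes of the 90 genes were -0.12, 0.04 and -0.11.

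**Figure D3:**
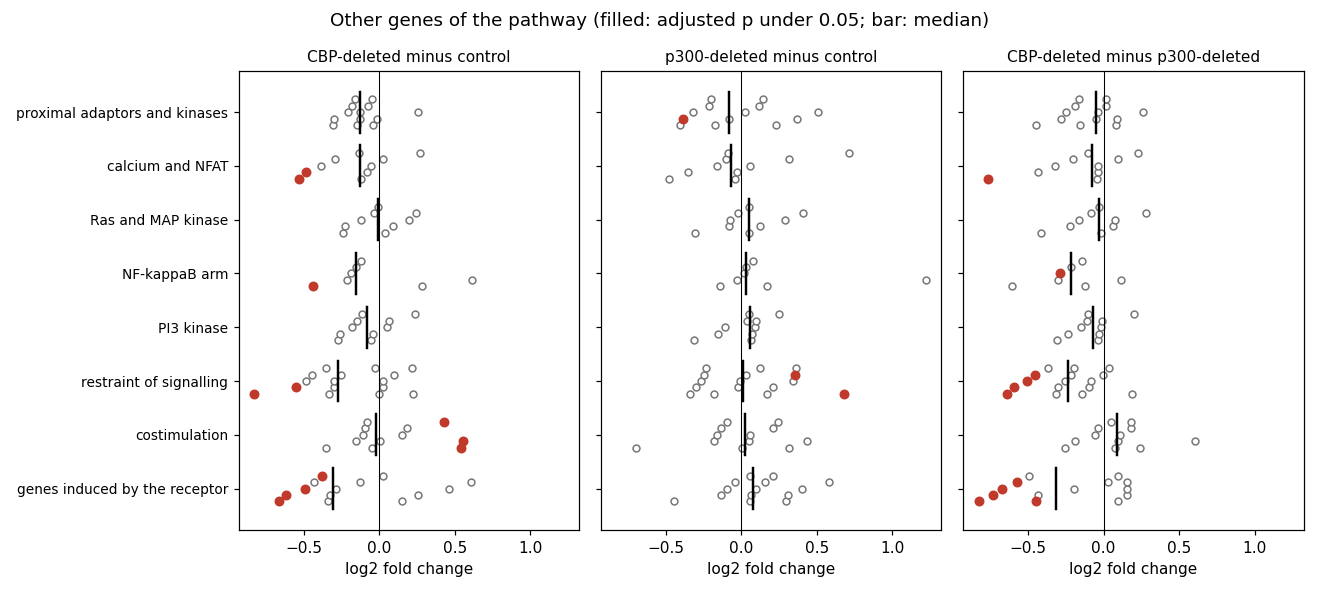
Log2 fold change of the measured genes of 8 further lists of the pathway (rows) in the 3 comparisons (panels), with 1 point per gene, filled where the adjusted p was under 0.05, and a bar at the median of each list. Genes induced by the receptor and restraint genes hold 17 filled points, all left of 0 in the panels that involve CBP-deleted cells.

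Among genes that restrain the signal, Sit1, a transmembrane adaptor that recruits the phosphatase SHP-2, read 8.44, 8.14 and 8.32 in CBP-deleted cells, 8.95, 9.04 and 8.70 in p300-deleted cells, and 9.29, 9.24 and 8.85 in controls. It fell by 0.83 in CBP-deleted cells (SE 0.13, limma adjusted p = 0.00898), lost in 1 of 19 alternatives, without CBP-deleted replicate 2 (adjusted p = 0.0514). Dok2, an adaptor that recruits a Ras inhibitor, fell by 0.55 in CBP-deleted cells (adjusted p = 0.0301), kept in 13 of 19. Spry1, a Sprouty inhibitor of the Ras to MAP kinase route, rose in p300-deleted cells to 8.68, 8.51 and 8.72, against 8.01, 7.95 and 7.92 in controls. Its rise of 0.68 (SE 0.09, adjusted p = 0.00572) held in all 19 alternatives. Dusp6, an ERK phosphatase, was 0.64 lower in CBP-deleted than in p300-deleted cells (adjusted p = 0.00783, all 19 alternatives), followed by Sit1 (-0.59), Dusp2, also a MAP kinase phosphatase (-0.51), and Spry1 (-0.45). Ptpn11, the gene of SHP-2, rose by 0.35 in p300-deleted cells (adjusted p = 0.0481), but in 2 of 19 alternatives only, and the mean of its probe sets was -0.03.

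Of 14 measured genes that receptor signals induce, 4 fell in CBP-deleted cells against the control, where 2.79% of all genes fell. By sign, 9 were below the control and 5 above. Il2 was the furthest above, at 0.61 with CBP deleted and 0.58 with p300 deleted (limma adjusted p = 0.0908 and 0.113). In p300-deleted cells 0 passed by limma (4 at an unadjusted p under 0.05). In CBP-deleted cells 5 were lower than in p300-deleted cells, where 2.01% of all genes were lower. Nab2, a corepressor of Egr factors, fell by 0.67 (adjusted p = 0.00898), Junb and Fos, parts of AP-1, by 0.62 (adjusted p = 0.0160) and 0.38 (adjusted p = 0.0426), and Ier2 by 0.49 (adjusted p = 0.0272). The fall of Fos against the control was kept in 7 of 19 alternatives, that of Nab2 in 18. Between the knockouts Junb was -0.83 (SE 0.12, limma adjusted p = 0.00268) and Fos -0.67 (SE 0.09, adjusted p = 0.00273), both in all 19 alternatives, and Egr1 -0.73 and Nab2 -0.57 in 15 and 17. Junb read 11.56, 11.40 and 11.13 in CBP-deleted cells and 12.35, 12.23 and 11.98 in p300-deleted cells, with controls at 12.04, 11.96 and 11.93, so the CBP-deleted arrays were the lowest.

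Calls in the remaining lists were few. The costimulation list had 3 risers in CBP-deleted cells: Ctla4, an inhibitory receptor (0.56), Slamf6, a SLAM family receptor (0.54), and Tnfrsf4, the gene of OX40 (0.43). These calls were kept in 16, 13 and 11 of 19 alternatives. In the calcium list Itpr2 and Itpr3, inositol trisphosphate receptors that release calcium from stores, fell in CBP-deleted cells by 0.53 and 0.49, kept in 12 and 9 of 19 alternatives, and Itpr2 was -0.18 with the mean of its probe sets. Nfat5 was -0.77 between the knockouts, kept in 9 of 19 alternatives and lost with the mean of its probe sets. Over the alternatives its difference ran from -0.92 to -0.18. Rela, a subunit of NF-kappaB, fell by 0.44 in CBP-deleted cells (8 of 19), and Nfkbia, its inhibitor, was -0.29 between the knockouts (10 of 19). Nck2 fell by 0.39 in p300-deleted cells, with a sign that turned with the mean of its probe sets (0.02). The Ras and MAP kinase list (9 measured) and the PI3 kinase list (10 measured) gave no call in any comparison by limma, with 1 to 3 genes of either list at an unadjusted p under 0.05.

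Markers of other cells moved in the same comparisons. Of 8 measured B cell markers, 4 fell in CBP-deleted cells against the control, where the list means were 7.35 to 7.76 against 8.11 to 8.24. Myeloid list means were 6.49 to 7.99 in CBP-deleted, 6.98 to 8.02 in p300-deleted and 5.99 to 6.80 in control arrays, with 0 of 10 markers called by limma and 3 at an unadjusted p under 0.05 in each comparison. Of 6 mast cell and basophil markers, 4 rose in p300-deleted cells (list means 5.59 to 6.33 against 4.69 to 4.87), and of 9 CD8 and NK cell markers 1 rose in each knockout. No marker was listed at 0. Their part in the members' differences was not tested. Of the T cell markers, Cd3d and Cd3e passed in no comparison, while Cd3g and Cd4 rose in p300-deleted cells.

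**Figure D4:**
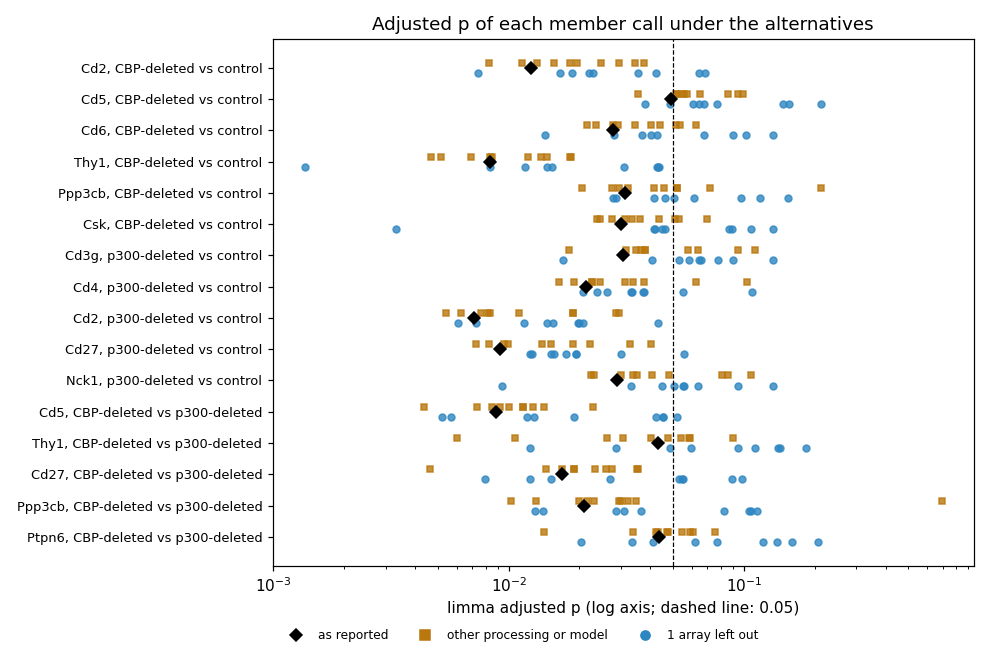
Limma adjusted p (log axis) of each of the 16 member calls (rows) as reported (diamonds), under 10 other processing choices or models (squares) and with each of the 9 arrays left out (circles); the dashed line is the threshold. All points of Thy1 in CBP-deleted cells and of Cd2 in p300-deleted cells against the control lie left of it.

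The 16 member calls differ in how firmly 3 arrays a group hold them. The plot of adjusted p by alternative shows 2 calls that passed in each of the 19 alternatives, Thy1 in CBP-deleted and Cd2 in p300-deleted cells against the control. Cd27 in p300-deleted cells and Cd5 between the knockouts failed in 1 alternative each. No call changed sign in any alternative.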

How the data were processed

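Transcripts of CD4+CD25+ cells were measured on 9 one-colour expression arrays from 100 ng of total RNA with a biotin label, per the labels' protocols. The deposited values are log2 summaries per probe set, made by the authors with RMA per the submitters' processing notes; the version and settings are not given in the sources used here. They were used as deposited. Of 22690 probe sets, 64 controls were set aside, 20380 carry 1 gene symbol in the platform annotation, 691 several and 1555 none here, which left 12393 genes after the brightest probe set was kept. Names were matched to RefSeq (GRCm38.p6), and 29 probe sets without a match kept their symbol.

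The tool was limma 3.58.1 (R 4.3.3). A single linear model held the group means of all 9 arrays and left 6 residual degrees of freedom, its variances were moderated by eBayes with an intensity trend, and tests were two-sided with Benjamini-Hochberg adjustment over all 12393 genes at a threshold of 0.05. No exact permutation test was used, since with 3 arrays a group its smallest p is 0.1. The fit was tested on simulated data. No array depth exists; the number of arrays limits the precision.

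The members, the gene lists and the motifs were chosen with earlier results of these data known. All members are accounted for, with full values for those past the threshold; of other pathway genes, up to 4 past it per list and comparison, by size, and Foxp3, Crebbp and Il2ra as checks. Cd247's next probe set and Cbl were singled out after their values were seen. Same-numbered arrays of different groups had deviations correlated at -0.23 to 0.27, so the numbers were not taken as pairs. The 19 alternatives were 10 other choices of probe sets, scaling or model and each array left out. P-values measure the spread between these samples, which the labels call independent without naming animals.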

Additional observations from a re-analysis of the deposited data

Results flagged for a closer look

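The next brightest Cd247 probe set lies outside the gene comparisons and passed when every probe set was tested on its own, higher by 1.13 with CBP deleted and by 1.05 with p300 deleted on the log2 scale, each against the same 3 controls (limma adjusted p = 0.0176 and 0.0207). Its controls read 8.12, 7.70 and 8.62. The probe set used for the gene differed by 0.17 and 0.05. With 3 arrays a group, single arrays were not screened for outlying values.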

How the results depend on the processing

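No member call changed sign in the 19 alternatives; over the called members and alternatives, 207 results stayed past the threshold and 97 did not. The counts of called members moved as follows. In CBP-deleted against control cells (2 higher, 4 lower) they were 1 and 1 with only the arrays of the groups compared, 1 and 2 with the replicate block, 1 and 2 with 18S as a covariate, and 2 and 1 with no trend. Leaving out 1 array gave 0 to 3 higher and 1 to 5 lower. In p300-deleted against control cells (5 higher, 0 lower), 2 were higher with only the arrays compared and 2 with 18S as a covariate. Leaving out 1 array gave 1 higher (without p300-deleted replicate 2) to 5, and 0 to 2 lower. Between the knockouts (1 higher, 4 lower), 0 were higher with the mean of all probe sets, and 2 lower with every probe set on its own, with no trend or with the replicate block. With only those 6 arrays 3 were higher and 10 lower. Leaving out 1 array gave 0 to 3 higher and 0 to 6 lower. The member medians moved by less than the 0.075 spread between arrays in every alternative, though in CBP-deleted cells it lay near 0 and changed sign with 18S as a covariate or without control replicate 1.

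The limma calls over all genes moved too: 611 in CBP-deleted against control cells became 85 without CBP-deleted replicate 3 and 1131 without control replicate 3. For p300-deleted against control cells 503 became 65 without p300-deleted replicate 2 and 854 without control replicate 3, and between the knockouts 645 became 212 without CBP-deleted replicate 2 and 1386 with only those 6 arrays. Leaving an array out lowers the degrees of freedom, and the cause of the other shifts was not tested. Same-numbered arrays were not paired by the check, and the replicate block ended the calls of Cd5, Csk and Ppp3cb in CBP-deleted and of Cd3g in p300-deleted cells against the control, and of Thy1 and Ptpn6 between the knockouts. No probe sets were masked for signal over background, since the deposited table holds no detection calls.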
